A study of Mus musculus with 19 samples.

Results

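The interleukin-1 (IL-1) family and the NLRP3 inflammasome were followed in mouse brain through 9 genes out of 49671 in the deposited expression files. The genes were chosen by name and matched to the files by Ensembl gene ID, with no use of their measured values: the ligands Il1a, Il1b and Il18, the antagonist Il1rn, the receptor subunit Il1rap, the sensor Nlrp3, the adaptor Pycard, the protease Casp1 and the pore protein Gsdmd. All 9 passed the filter on low values and were among the 23973 genes tested. Each library held RNA from the brain homogenate of 1 mouse after enrichment for microglia, and all mice were on the B6D2F1/J background. HEM mice carried a transgene for human wild-type alpha-synuclein on the X chromosome, driven by the mouse Thy-1 promoter, which in brain is active mainly in neurons, and WT mice were their controls. The 13-month groups held 8 HEM and 4 WT animals, and the 3-month groups 4 HEM and 3 WT animals, whose sex is not given in the sources used here. A library is named by its group and its title number.

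IL-1 alpha and IL-1 beta are the inflammatory cytokines of this family and act on the same receptor, whose signal needs the accessory chain IL1RAP. The IL-1 receptor antagonist, the product of Il1rn, occupies that receptor without signalling. IL-1 beta and IL-18 are made as precursors, and in the inflammasome NLRP3, the adaptor ASC (from Pycard) and caspase-1 assemble so that caspase-1 can cut both precursors and the pore-forming protein gasdermin D. In brain these genes are best known in microglia, and IL-1 beta is also made in quantity by neutrophils and monocytes. Cutting and assembly happen to proteins, so the RNA levels given here are levels of the parts and not of inflammasome activity.

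Il1a and Il1b lie next to each other on the minus strand of chromosome 2, at positions 129299610 to 129309972 and 129364570 to 129371139, and Il1rn lies on the plus strand of the same chromosome at 24336853 to 24351494 (mm10). The 250 bases before their transcription starts are given because these are the members with the widest spread between libraries, and they are the sequences through which transcription of these genes begins. They were taken from RefSeq (GRCm38.p6) at chr2:129371140-129371389 (minus strand) for Il1b, chr2:129309973-129310222 (minus strand) for Il1a and chr2:24336610-24336859 (plus strand) for the first of 3 listed starts of Il1rn. Capitals mark matches to the TATA box TATAAA or to the AP-1 motif TGANTCA, where N is any base.
Il1b: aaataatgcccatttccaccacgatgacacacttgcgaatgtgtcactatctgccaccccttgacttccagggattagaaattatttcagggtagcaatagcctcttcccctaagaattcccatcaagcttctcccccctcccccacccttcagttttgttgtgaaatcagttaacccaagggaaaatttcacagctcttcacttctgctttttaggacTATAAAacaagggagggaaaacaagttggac
Il1a: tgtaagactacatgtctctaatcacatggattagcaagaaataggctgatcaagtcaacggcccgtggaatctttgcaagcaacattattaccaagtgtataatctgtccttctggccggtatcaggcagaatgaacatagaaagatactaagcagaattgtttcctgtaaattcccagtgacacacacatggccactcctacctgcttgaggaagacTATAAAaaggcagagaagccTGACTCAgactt
Il1rn: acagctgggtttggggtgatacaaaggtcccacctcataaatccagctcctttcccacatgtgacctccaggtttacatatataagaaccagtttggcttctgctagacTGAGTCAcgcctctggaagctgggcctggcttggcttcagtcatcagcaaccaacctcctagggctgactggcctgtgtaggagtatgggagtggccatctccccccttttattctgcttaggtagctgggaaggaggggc
The TATA box lay at -31 in Il1b and at -32 in Il1a, counted from the annotated start. The AP-1 motif, the sequence bound by Fos and Jun proteins, lay at -12 in Il1a and at -141 from the first listed start of Il1rn. The windows of the other listed starts of Il1rn did not hold it. Over 32851 mouse promoters of 300 bases, from 250 before to 50 after the start and read on both strands, 13.6% held TATAAA and 7.81% held TGANTCA. The NF-kB motif GGANTTNCC was in 3.95% of promoters and, of the 11 windows listed for 8 members, in 1 of Nlrp3. TATAAA was also matched on the reverse strand in Il18 and in another window of Il1rn. The search also covered the C/EBP motif TTGCNNAA (10.8% of promoters, and Pycard among the members) and the PU.1 motif GAGGAAGT (3.20%, and Pycard). These motifs were settled after the hits of an earlier search had been seen: the NF-kB letters were shortened by a base from a form that matched no member, and an interferon element that matched Il1rap was left out. A match is a description of the letters and not a binding site, and no match says only that these letters are not in this window.

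The reads counted in genes per library (M, 10 to the power of 6) were 63.3 M to 95.8 M in 13-month HEM, 93.2 M to 124.5 M in 13-month WT, 74.7 M to 112.9 M in 3-month HEM and 83.0 M to 106.8 M in 3-month WT. The sparsest member, Il1rn, still had 129 to 1071 reads per library. Levels below are the authors' normalized read counts, which are reads divided by a size factor for each library. Microglia markers were present throughout, with a mean log2 level of 14.9 to 16.3 over 12 markers and no marker at 0 in any library. The mean was 15.59 ± 0.49 in 13-month HEM and 15.79 ± 0.30 in 13-month WT, and 0 of the 12 markers were called in that comparison, beside 12.2% of all genes. Thy1, the source of the transgene's promoter, had 5205 to 37356 normalized counts in 13-month HEM and 2362 to 7909 in 13-month WT, and 18307 to 51370 in 3-month HEM against 3367 to 10886 in 3-month WT. It was not called at either age. The log2 fold change was 1.20 ± 0.49 (SE; limma, adjusted p = 0.127) at 13 months and 1.90 ± 0.62 (SE) at 3 months. Of all genes, 3.08% lay higher in HEM without overlap at 3 months. In bulk RNA of this kind, fewer cells of a type and less RNA per cell cannot be told apart.

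**Figure D1:**
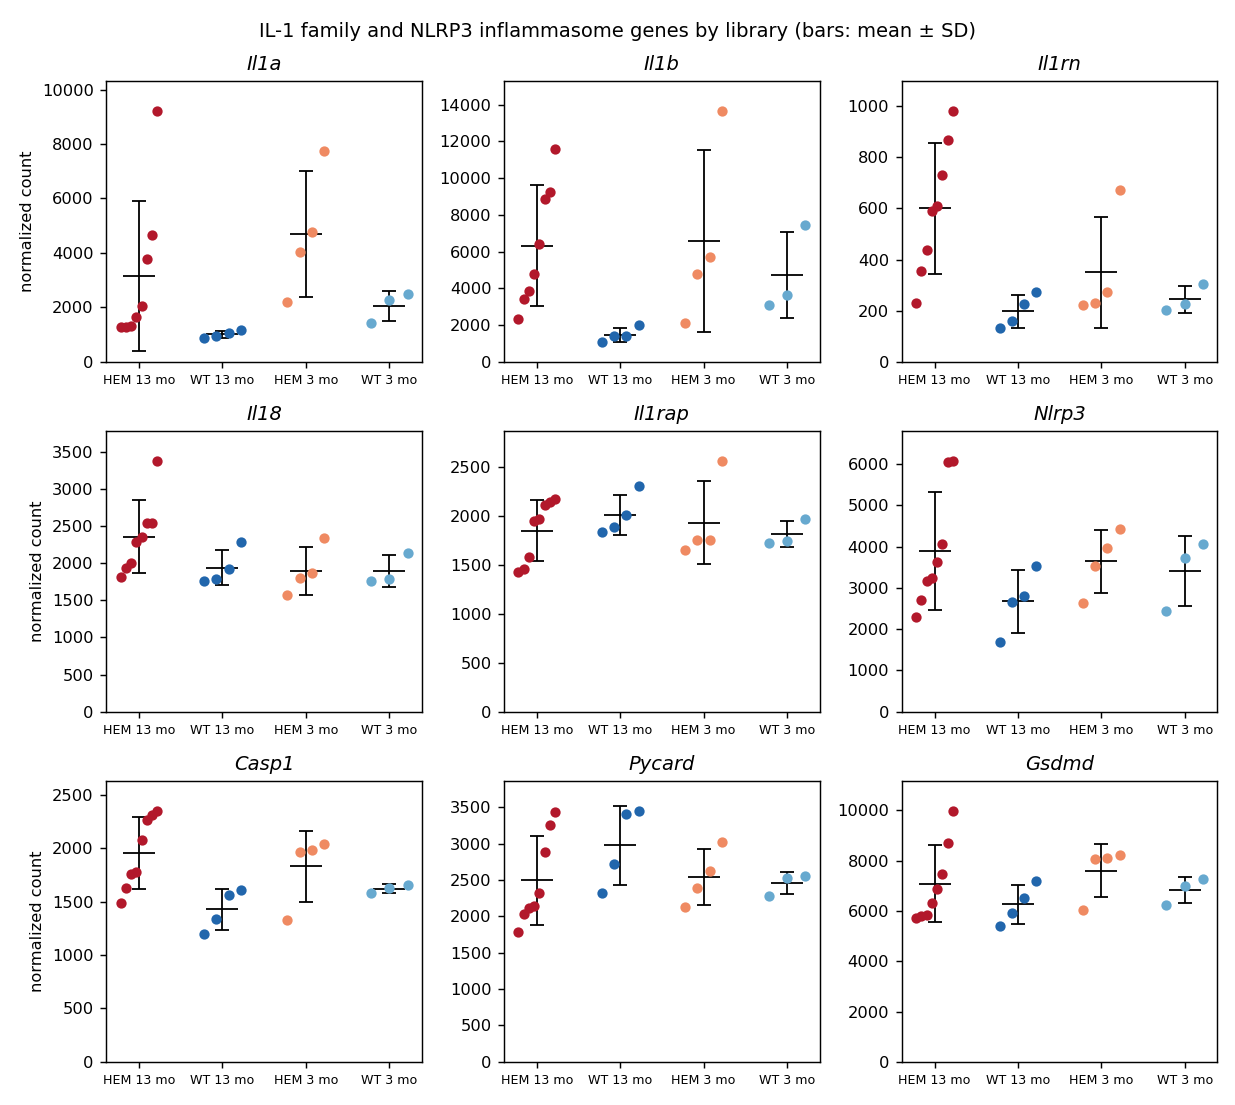
Normalized read count of each member (vertical axis, from 0) in every library, with 1 point per mouse, in 13-month HEM (n = 8), 13-month WT (n = 4), 3-month HEM (n = 4) and 3-month WT (n = 3); bars are mean ± SD. Il1a, Il1b and Il1rn spread widely and 13-month WT sits low for Il1a and Il1b, whereas Il18, Il1rap, Casp1, Pycard and Gsdmd stay within a narrow band in all groups.

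At 13 months, 3 of the 9 members were higher in HEM than in WT brain and none was lower: Il1b, its antagonist Il1rn and, by a small margin, Casp1. The same test called 12.2% of all genes, and 4.87% of all genes were called higher. The median log2 fold change of the 9 members was 0.45 and that of all genes 0.03. Fold changes, standard errors and adjusted p-values come from limma on log2(normalized count + 1), with Benjamini-Hochberg adjustment over all genes tested and a call at an adjusted p under 0.05.

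Il1b, the main secreted IL-1 cytokine, had 2315 normalized counts in the lowest, 5579 in the median and 11616 in the highest of the 8 HEM libraries. In WT it had 1374, 1400, 2006 and 1064. Every HEM library lay above every WT library, with replicates 8 and 1 at the top and replicate 3 at the bottom of the HEM group. The log2 fold change was 1.96 ± 0.44 (SE), a 3.88-fold difference (limma, adjusted p = 0.00757). It stayed called with any 1 of the 19 libraries left out, at 1.81 to 2.14.

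Il1a, the other agonist of the same receptor, had 1258 normalized counts in the lowest, 1839 in the median and 9208 in the highest HEM library. In WT it had 933, 862, 1168 and 1044. The groups did not overlap here either, but 3 HEM libraries (replicates 1, 12 and 13) lay within 136 normalized counts of the highest WT library while replicate 11 lay far above the rest. The log2 fold change of 1.27 ± 0.46 (SE) did not pass the test over all genes (limma, adjusted p = 0.0765). Count models on the recovered reads gave 1.65 and called it, edgeR's quasi-likelihood test at an adjusted p of 0.0429 and DESeq2 at 0.00480. Members whose groups did not overlap were these 2, against 2.69% of all genes that lay higher without overlap.

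Il1rn, which encodes the receptor antagonist, had 229 normalized counts in the lowest, 599 in the median and 982 in the highest HEM library. WT had 225, 274, 160 and 130. The groups overlapped by HEM replicate 3, the library that was also lowest for Il1b, and the other 7 HEM libraries lay above every WT library. The log2 fold change was 1.52 ± 0.36 (SE), or 2.87-fold (limma, adjusted p = 0.0101), and it stayed called with any 1 library left out, at 1.34 to 1.70. In these fits the limma adjusted p reached 0.0499, just under the threshold.

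The balance of agonist and antagonist was compared as a ratio within each library. Per kilobase of exon, the ratio of Il1b to Il1rn was 30.5 ± 8.33 in 13-month HEM and 23.1 ± 9.54 in 13-month WT (SD, n = 8 and 4). The lengths, 1907 bases for Il1b and 5535 for Il1rn, join all annotated exons of a gene. They set the size of the ratio but not its log2 difference between groups. The difference in the mean log2 ratio was 0.43 (two-sided exact permutation test, p = 0.178, adjusted p = 0.237 over 8 ratio comparisons). The ratio of Il1b to Il1a ran from 0.994 to 7.58 among 13-month HEM libraries and from 1.05 to 1.78 among 13-month WT libraries. The mean log2 difference was 0.68 (two-sided exact permutation test, adjusted p = 0.277). None of the 8 ratio comparisons passed the adjustment.

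Il18, the IL-1 family cytokine that drives interferon gamma production in T and NK cells, had 1817, 2318 and 3373 normalized counts in the lowest, median and highest HEM library. WT had 2284, 1789, 1922 and 1763. The groups overlapped, and the log2 fold change was 0.26 ± 0.14 (SE; limma, adjusted p = 0.275). Il1rap, the accessory chain of the IL-1, IL-33 and IL-36 receptors, had 1428, 1960 and 2169 in HEM against 1839, 2008, 2302 and 1889 in WT, with a log2 fold change of -0.13 ± 0.14 (SE; limma, adjusted p = 0.631). The range in HEM spanned most of that in WT.

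Of Nlrp3, Pycard, Casp1 and Gsdmd, Casp1 alone passed the limma test over all genes at 13 months. It encodes caspase-1 and had 1482 normalized counts in the lowest, 1928 in the median and 2344 in the highest HEM library, against 1559, 1609, 1199 and 1341 in WT. HEM replicate 12 lay within the WT range and the other 7 HEM libraries lay above it. The log2 fold change was 0.45 ± 0.14 (SE), or 1.36-fold (limma, adjusted p = 0.0437). Leaving out single libraries in turn ended the call 13 times out of 19, and the limma adjusted p reached 0.164 without WT replicate 8 and 0.123 without WT replicate 9. It was kept without HEM 13-month replicates 7, 8 or 12, WT 13-month replicate 6, or HEM 3-month replicates 3 or 7.

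Nlrp3, the sensor, had 2288, 3436 and 6071 normalized counts in the lowest, median and highest HEM library. WT had 1678, 2815, 2667 and 3532. HEM replicates 4 and 11 stood highest, and these were also the 2 highest for Il1a. The log2 fold change was 0.51 ± 0.25 (SE; limma, adjusted p = 0.213). Pycard, the adaptor, had 1787, 2238 and 3438 in HEM against 2723, 3409, 2324 and 3445 in WT, with a log2 fold change of -0.27 ± 0.16 (SE; limma, adjusted p = 0.343). Gsdmd, the pore protein cut by caspase-1, had 5732, 6602 and 9964 in HEM against 6524, 5922, 5407 and 7187 in WT, with a log2 fold change of 0.16 ± 0.14 (SE; limma, adjusted p = 0.550). The groups overlapped for all 3 genes.

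**Figure D2:**
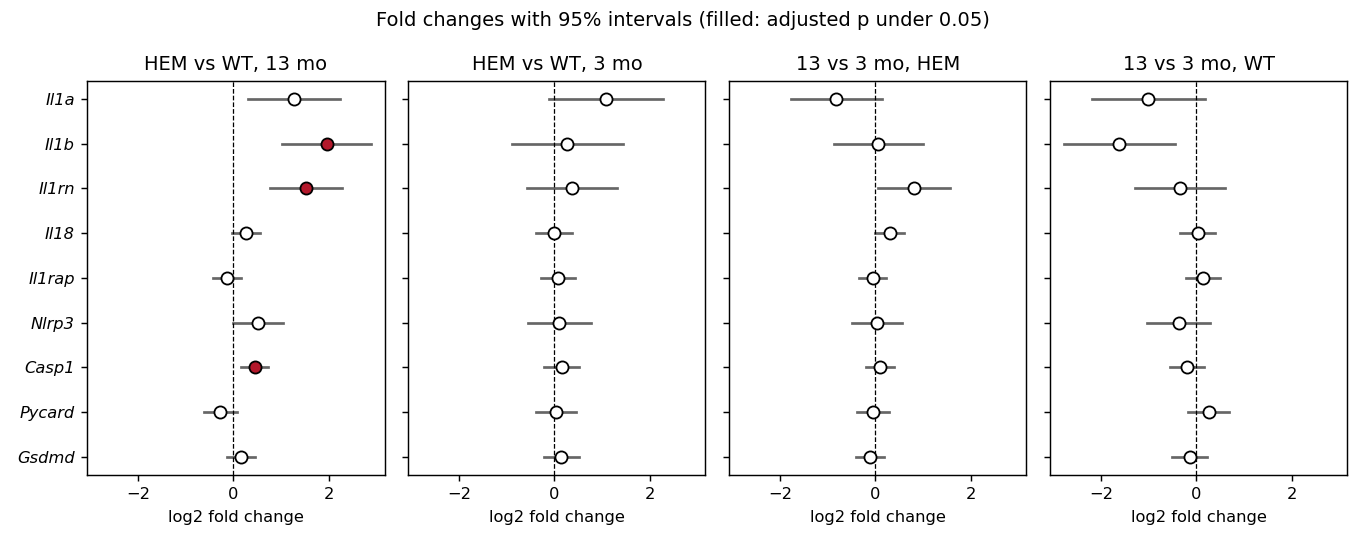
Log2 fold change (horizontal axis) of each member in 4 comparisons, with its 95% interval as a line; filled points passed an adjusted p of 0.05 in limma. Il1b at 1.96, Il1rn at 1.52 and Casp1 at 0.45 are the filled points, all in HEM against WT at 13 months.

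At 3 months, 0 of the 9 members were called between HEM and WT, and 0% of all genes were. At an unadjusted p under 0.05 there were 0 members and 924 genes, or 3.85% of those tested. edgeR called 0 genes and DESeq2 called 6, none of them a member. Il1a had the largest estimate. It had 4010, 7759, 4780 and 2190 normalized counts in HEM against 2487, 1422 and 2245 in WT, where HEM replicate 7 fell inside the WT range and the other 3 HEM libraries lay above it. Its log2 fold change was 1.09 ± 0.57 (SE), with a 95% interval of -0.10 to 2.28 (limma, adjusted p = 1.0).

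Il1b at 3 months had 5716, 13656, 4793 and 2077 normalized counts in HEM against 7425, 3073 and 3641 in WT. HEM replicate 3 held the highest value of the 19 libraries and replicate 7 lay below all 3 WT libraries. Its log2 fold change was 0.28 ± 0.55 (SE; limma, adjusted p = 1.0), and it was -0.18 without HEM replicate 3. Il1rn had 275, 673, 220 and 228 in HEM against 225, 203 and 304 in WT, again with replicate 3 alone above the WT range, and its log2 fold change was 0.37 ± 0.45 (SE; limma, adjusted p = 1.0). The other 6 members had log2 fold changes from -0.01 for Il18 to 0.15 for Casp1. The interval for Casp1, -0.21 to 0.52, contains the 0.45 measured at 13 months.

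The difference between the genotype effects at the 2 ages was tested directly. It was called for 0 of the 9 members and 0% of all genes, with 3551 genes, or 14.8%, at an unadjusted p under 0.05 (DESeq2 called 938 genes, no member among them, and edgeR 0). For Il1b the effect at 13 months exceeded that at 3 months by 1.68 ± 0.71 (SE) on the log2 scale, with a 95% interval of 0.20 to 3.17 (limma, adjusted p = 0.266). For Il1rn the difference was 1.15 ± 0.58 (SE; limma, adjusted p = 0.366), and for Casp1 it was 0.29 ± 0.22 (SE; limma, adjusted p = 0.604). The calls at 13 months are therefore not shown to be particular to that age.

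With age, no member was called in either genotype. Between 13-month and 3-month WT brain 0.709% of all genes were called, and between 13-month and 3-month HEM brain 1.62%. In WT, Il1b had 1374, 1400, 2006 and 1064 normalized counts at 13 months against 7425, 3073 and 3641 at 3 months. The ages did not overlap, and the log2 fold change was -1.62 ± 0.55 (SE; limma, adjusted p = 0.149; DESeq2 gave -1.69 with an adjusted p of 0.0351). Il1a in WT likewise did not overlap, with a log2 fold change of -1.002 ± 0.57 (SE; limma, adjusted p = 0.418). Of all genes, 6.46% were lower at 13 months without overlap between these groups of 4 and 3.

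In HEM, Il1b had a mean of 6306 ± 3299 normalized counts at 13 months and 6560 ± 4976 at 3 months (SD, n = 8 and 4). Its log2 fold change was 0.07 ± 0.44 (SE; limma, adjusted p = 0.960). Il1rn had a log2 fold change of 0.81 ± 0.36 (SE; limma, adjusted p = 0.267) and Il1a one of -0.82 ± 0.46 (SE; limma, adjusted p = 0.382). The comparison of genotypes at 13 months and that of ages in WT share the 13-month WT libraries. Those 4 libraries held the lowest group mean for Il1b, 1461 ± 394 normalized counts, beside 4713 ± 2366 in 3-month WT and the means given for HEM.

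Compared per kilobase of exon, the members kept a broad order of levels. This length joins all annotated exons of a gene, from 1031 bases for Il18 to 11360 for Il1rap, with 3800 for Pycard. It can exceed the length of the transcripts present, so the order between genes depends in part on the annotation. Il1b averaged 3307 ± 1730 normalized counts per kb in 13-month HEM, first of the 9, and 766 ± 207 in 13-month WT, where it ranked 5. Gsdmd averaged 2984 ± 651 in 13-month HEM and 2633 ± 323 in 13-month WT. In 13-month WT, Gsdmd stood above Il18 (1881 ± 233), and Il18 above Casp1 (953 ± 128), without overlap. Casp1, Pycard, Il1b and Nlrp3 followed, each overlapping its neighbour, and Il1a came next at 508 ± 67.7. Il1rap (163 ± 27.5 in 13-month HEM and 177 ± 18.2 in 13-month WT) and Il1rn (108 ± 46.3 in 13-month HEM and 35.7 ± 11.7 in 13-month WT) were the lowest in all 4 groups. The 2 overlapped in 13-month HEM and were apart in the other 3 groups. In HEM of both ages Il1b and Gsdmd, and every other pair of neighbours down to Il18 or beyond, overlapped.

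Some members varied together from library to library once group means were removed, as shown in the plot of pairwise correlations. Il1b varied with Il1rn (Pearson r = 0.73, permutation p = 0.00306, adjusted p = 0.0220 over 36 pairs; Spearman rho = 0.70, permutation p = 0.00416). Il1a varied with Nlrp3 (r = 0.79, permutation p = 0.000210, adjusted p = 0.00756; rho = 0.81, permutation p = 0.000270). The r was 0.66 for Il1b with Il1rn and 0.67 for Il1a with Nlrp3 after leaving out the 2 libraries farthest from the median of the first gene. Gsdmd varied with Pycard (r = 0.77, permutation p = 0.00187; rho = 0.83, permutation p = 0.000450) and with Casp1 (r = 0.74, permutation p = 0.00290; rho = 0.75, permutation p = 0.00368). It varied against Il1rap (r = -0.79, permutation p = 0.00213; rho = -0.72, permutation p = 0.00601), and these 3 had an adjusted p of 0.0220. Without the 2 libraries farthest from the median of Pycard, of Casp1 and of Il1rap, respectively, they were 0.78, 0.65 and -0.69. The other 31 of the 36 pairs did not pass by Pearson's r. By Spearman's rho 2 of them did, Nlrp3 with Pycard (rho = 0.66, permutation p = 0.00536, adjusted p = 0.0361) and Casp1 with Pycard (rho = 0.69, permutation p = 0.00849, adjusted p = 0.0437). All values are over the same 19 libraries, whose depth and cell content differ, and deviations were permuted within groups. The share of all tested gene pairs that reach such values is not given here. Varying together is therefore not shown to be particular to these members.

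**Figure D3:**
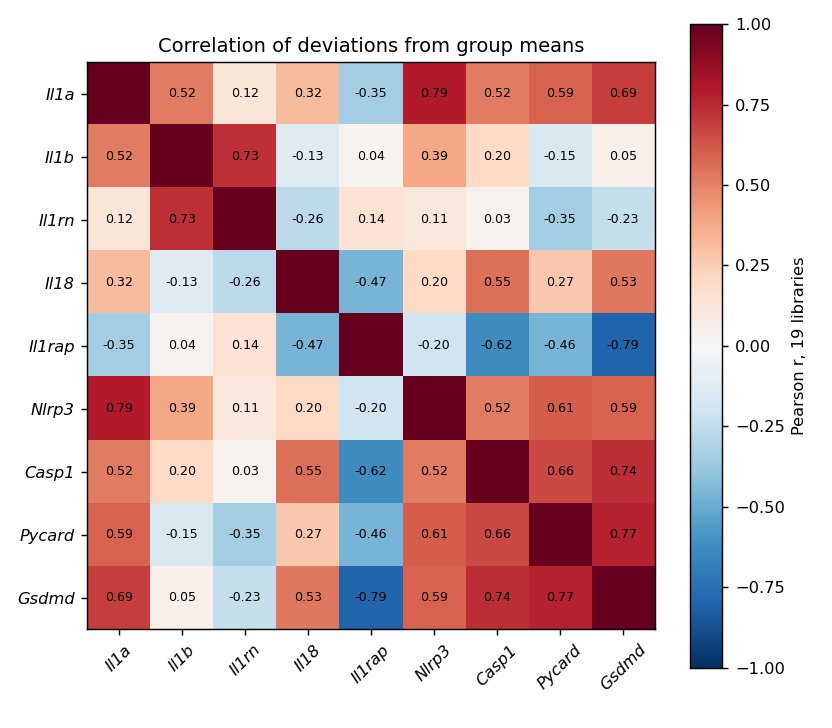
Pearson correlation of each pair of members over 19 libraries, after subtracting each group's mean of log2(normalized count + 1); colour and number give r. Il1b goes with Il1rn (0.73) and Il1a with Nlrp3 (0.79), while Il1rap is negative with Gsdmd (-0.79).

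The genes most like Il1b over the 19 libraries, group differences included, were Osm (r = 0.92), an IL-6 family cytokine, Trem1 (0.91), a receptor of neutrophils and monocytes that amplifies inflammatory signals, Ptgs2 (0.91), the inducible cyclooxygenase, and then Btg1 and Pim1. For Il1a they were Tgif1 (0.93), Gpr84 (0.93), Tlr2 (0.90), Ccl4 (0.89) and Cd14 (0.89), among them receptors for bacterial products and a chemokine. For Nlrp3 they were Map3k14 (0.91), the NF-kB inducing kinase, Nrros (0.89), Gmeb1, Lrrc25 and Il4ra, and for Casp1 they were Fam49b (0.89), Cd48, Cd200r1, Morc3 and Samsn1. These are the highest of the tested genes after leaving out unnamed genes and predicted, clone and mitochondrial genome symbols, and are given as a description.

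Among other genes of the pathway, those that limma called at 13 months were all higher in HEM, where 4.87% of all genes were called higher. In limma none of the 5 lists held a called gene at 3 months, with age or in the difference of effects. DESeq2 called Nfkbiz as lower with age in WT (log2 fold change -1.60, adjusted p = 0.00986). In the difference of effects it called 938 of 23951 genes, among them Pstpip1 (1.20, adjusted p = 0.0126), Nfkbiz (1.93, adjusted p = 0.0191) and Il1r2 (2.56, adjusted p = 0.0427). There edgeR called none of the pathway genes, and 0 of all genes. Of 9 IL-1 family receptors 4 were called in limma at 13 months, and the same number in edgeR and in DESeq2. Of all genes there, DESeq2 called 3980 of 23951 and edgeR 2898 of 23973. Il18rap, the accessory chain of the IL-18 receptor, had 2063 ± 338 normalized counts in HEM libraries and 762 ± 143 in WT libraries (means ± SD of 8 and 4 libraries), with a log2 fold change of 1.44 ± 0.22 (SE; limma, adjusted p = 0.00176). Its partner chain Il18r1 averaged 1012 ± 333 in HEM and 450 ± 116 in WT, a log2 fold change of 1.13 ± 0.27 (SE; limma, adjusted p = 0.0115). Both chains of the IL-18 receptor thus passed the test, and Il18 itself, at 0.26, did not. Il1r2, the decoy receptor for IL-1, averaged 551 ± 362 in HEM and 127 ± 70.5 in WT, a log2 fold change of 1.95 ± 0.57 (SE; limma, adjusted p = 0.0316). Il1rl1, the IL-33 receptor, had a log2 fold change of 0.70 ± 0.18 (SE; limma, adjusted p = 0.0142). Il1r1, the signalling receptor for IL-1, had 0.14 ± 0.22 (SE; limma, adjusted p = 0.775).

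Of the 7 further ligands and decoys, 4 (Il36a, Il36b, Il1f10 and Il36rn) stayed below the filter with at most 4.69 normalized counts. The other 3, Il33, Il36g and Il18bp, were tested and limma called 0, with log2 fold changes of -0.07, 1.25 and 0.24. Il36g, an IL-36 cytokine, was called by DESeq2 (1.41, adjusted p = 0.0162) and in limma without HEM 13-month replicate 3 (1.59, adjusted p = 0.0111). Of 14 genes of receptor signalling 3 rose in limma, against 4.87% of all genes. DESeq2 called 6 as higher, beside 1784 of all 23951 genes. Nfkbiz, an atypical NF-kB inhibitor protein induced by IL-1, averaged 11616 ± 6031 in HEM and 2883 ± 1294 in WT, a log2 fold change of 1.97 ± 0.33 (SE; limma, adjusted p = 0.00213). Irak3, a negative regulator of this signal, had 0.63 ± 0.17 (SE; limma, adjusted p = 0.0205) and Tab3, an adaptor of the kinase TAK1, had 0.32 ± 0.09 (SE; limma, adjusted p = 0.0308).

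Of 14 other sensors and caspases limma called 2, both higher, beside 12.2% of all genes called and 4.87% called higher. DESeq2 called 4 of them, beside 3980 of all 23951 genes with 1784 higher, and edgeR 1. Casp4, which encodes mouse caspase-11 of the noncanonical inflammasome, averaged 1195 ± 287 in HEM and 668 ± 79.0 in WT, a log2 fold change of 0.81 ± 0.19 (SE; limma, adjusted p = 0.00949). Nlrp6 had 4.23 to 37.6 normalized counts in HEM and 0 to 8.09 in WT (limma, adjusted p = 0.0445), and edgeR did not call it (adjusted p = 0.0827). Of 11 tested regulators and pore-linked genes limma also called 2, both higher, beside the same shares of all genes. Pstpip1, which encodes a partner of pyrin, had a log2 fold change of 1.23 ± 0.19 (SE; limma, adjusted p = 0.00176), and Panx1, a membrane channel, one of 0.61 ± 0.16 (SE; limma, adjusted p = 0.0209). DESeq2 called 4 of this list, among them Ninj1, which encodes a protein of plasma membrane rupture, as lower (-0.35, adjusted p = 0.0435). In limma Ninj1 was called lower without WT 13-month replicate 6 (-0.48, adjusted p = 0.00643). The regulator Trim31 stayed below the filter.

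Il18rap, Il18r1, Nfkbiz, Casp4 and Pstpip1 stayed called with any 1 of the 19 libraries left out. Il1r2 was called 12 times out of 19 (lost without HEM 13-month replicates 1, 4, 12 or 13, or WT 13-month replicates 7, 8 or 9), and Tab3 in 14 (lost without HEM 13-month replicate 12 or any of the 4 WT 13-month libraries). Il1rl1 was lost without WT 13-month replicate 9, Irak3 without WT 13-month replicates 7 or 9, and Panx1 without WT 13-month replicates 6, 8 or 9. Nlrp6 was called in 7 fits and lost in the other 12: without HEM 13-month replicates 1, 3, 7, 11, 12 or 13, WT 13-month replicates 7 or 8, HEM 3-month replicates 1, 4 or 7, or WT 3-month replicate 1.

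Markers of some other cell types also differed between HEM and WT at 13 months, where 4.87% of all genes were called higher and 7.3% lower. Whether they vary with the members from library to library was not tested. At 13 months 11 of 12 neutrophil markers were higher in HEM, with a mean log2 level of 13.52 ± 1.01 (11.55 to 14.62) in HEM and 11.42 ± 0.60 (10.79 to 12.18) in WT. Of 8 monocyte markers 7 were higher, at 11.48 ± 0.70 (10.41 to 12.23) in HEM and 9.83 ± 0.54 (9.06 to 10.25) in WT. T and NK cell markers were higher for 4 of 8, at 10.05 ± 0.48 (9.48 to 10.96) in HEM and 8.85 ± 0.61 (8.38 to 9.70) in WT, and erythroid markers for 2 of 7, at 14.97 ± 0.47 (14.06 to 15.56) in HEM and 13.67 ± 0.54 (13.06 to 14.27) in WT. Of 6 border-associated macrophage, 8 neuron and 6 oligodendrocyte markers 0 were called, and of 6 astrocyte markers 1 was lower. No marker of these lists was at 0 in any library.

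Of 18 immediate early genes, which respond within minutes and also to tissue handling, 16 were higher in HEM at 13 months, against 4.87% of all genes. Their mean log2 level was 14.07 ± 0.55 (13.48 to 15.01) in HEM and 12.38 ± 0.80 (11.45 to 13.13) in WT. Their level was also lower in 13-month WT than in 3-month WT (14.32 ± 0.65, 13.71 to 15.00), with 7 of 18 called lower, against 0.246% of all genes. Il1b and Il1a were lower there in value. So were the levels of other lists, without a call: in 3-month WT neutrophil markers stood at 12.58 ± 0.65, monocyte markers at 10.81 ± 0.37 and erythroid markers at 14.93 ± 0.26. Astrocyte and oligodendrocyte levels were higher in 13-month WT, at 14.28 and 13.40, than in 3-month WT, at 13.87 and 13.26. At 3 months 0 markers of all these lists were called between the genotypes, but 0% of all genes were, so this does not show equal cell content. Levels differed in both directions there. Neuron markers stood at 11.94 ± 0.55 (11.63 to 12.77) in HEM and 10.78 ± 0.78 (10.16 to 11.66) in WT. Neutrophil markers stood at 11.96 ± 0.92 in HEM and 12.58 ± 0.65 in WT.

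With the neutrophil and erythroid levels of each library as covariates, 0 members and 0% of all genes were called at 13 months. The log2 fold change was then 1.08 for Il1b, 0.28 for Il1rn, 1.05 for Il1a and 0.37 for Casp1. With the immediate early level as the covariate, again 0 members and 0% of all genes were called, and the values were 0.91 for Il1b, 1.42 for Il1rn, -0.12 for Il1a and 0.38 for Casp1. Among the pathway genes Il1r2 had -0.16 with the first covariates and 1.83 with the second, Nfkbiz had 1.76 and 0.52, and Il18rap had 0.80 and 1.47. These covariates differ between the genotypes at 13 months, and the part of the marked cells and of handling in the result was not tested. On the first principal component HEM 13-month replicate 1 (-130) and HEM 3-month replicate 3 (-68.4) lay lowest of the 19 libraries. Without these and HEM 13-month replicate 11, which an earlier analysis had singled out and which lay among other HEM libraries on the first 2 components here, Il1b kept a log2 fold change of 1.72 (limma, adjusted p = 0.0145) and Il1rn one of 1.36 (limma, adjusted p = 0.0157). Casp1 did not keep its call (limma, adjusted p = 0.118).

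**Figure D4:**
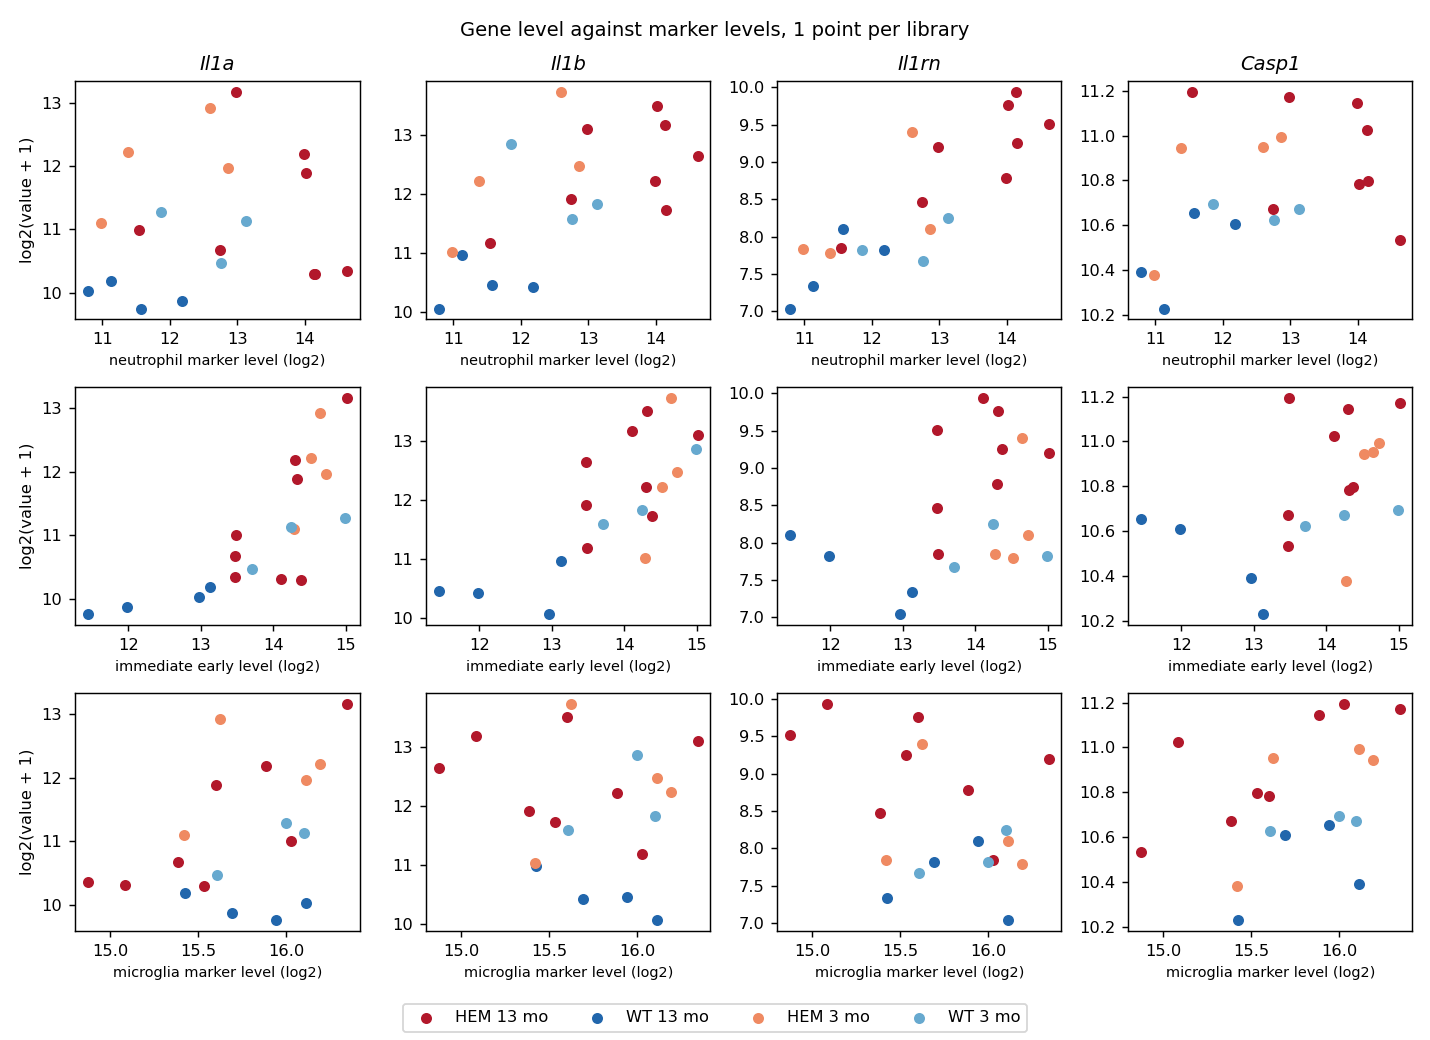
Level of Il1a, Il1b, Il1rn and Casp1 (vertical axes, log2(normalized count + 1)) against the mean log2 level of neutrophil markers (top row), immediate early genes (middle row) and microglia markers (bottom row), with 1 point per library coloured by group. Most 13-month HEM libraries lie right of 13-month WT on the neutrophil axis and all lie right of it on the immediate early axis, while the groups overlap on the microglia axis.

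Genes on the opposite strand overlap part of the exons of 4 members: 11.2% of Il1a (Gm14023), 1.31% of Il1b (Il1bos), 4.86% of Il1rap (Gm20319) and 12.8% of Pycard (Gm45205). Whether the authors counted by strand is not given in the sources used here, so reads of these partners cannot be told apart from those of the members over these stretches.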

How the data were processed

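RNA libraries from 19 mice (NEBNext Ultra II, per the labels' protocols) were trimmed, aligned to mm10 and counted with Trimmomatic, HISAT2, featureCounts and DESeq2, per the submitters' processing notes, which give no versions. The deposited signal values are gene counts that the authors divided by a size factor per library. They were read as whole reads within 0.01 for all genes, with depths of 63.3 M to 124.5 M reads (M, 10 to the power of 6). Counting error was not compared with the spread between mice. Gene symbols and exon lengths came from GENCODE M21, where 49326 of 49671 IDs matched, and listed symbols newer than M21 were matched through RefSeq synonyms.

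Genes that reached 10 normalized counts in 3 or more libraries were tested with limma 3.58.1 (R 4.3.3; trend and robust options, two-sided, 4 group means, Benjamini-Hochberg adjustment) on log2(value + 1), a scale that understates changes of low genes. Each library is a separate mouse. On the recovered reads edgeR 4.0.16 called 2898 genes at 13 months and DESeq2 1.42.0 called 3980, against 2918 by limma. The limma fit was tested on simulated data, and the other scripts were not. At 13 months it called 17.6% of simulated 1.5-fold changes, 43.8% of 2-fold and 80.6% of 4-fold changes. At 3 months it called 3.23%, 41.7% and 73.1%. A gene that was not called may therefore still differ. Marker levels are means of log2(value + 1) over a list. Named genes are all members, the called genes of each pathway list with the smallest p (at most 4), and the 5 named genes with the highest Pearson r for Il1b, Il1a, Nlrp3 and Casp1. Alternatives covered pseudocounts, filters, scaling, depth, covariates, a replicate block and libraries left out. The members, lists and tests were chosen with earlier results of these data known. The ligand ratios, the correlations between members, the promoter motifs and the refits of the pathway genes were added after the data had been seen.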

Additional observations from a re-analysis of the deposited data

Results flagged for a closer look

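Within the 4 libraries of 3-month HEM mice, replicate 7 stood apart from the other 3 for 3 members by Dixon's gap test on the log2 scale at the 95% level. It had the highest Il1rap, at 2559.67 normalized counts with the next library at 1758.62. It had the lowest Casp1, at 1331.11 with the next at 1967.91, and the lowest Gsdmd, at 6029.07 with the next at 8072.43. All 3 values come from 1 library, so they are not independent of each other. The test was run on 27 gene and group combinations, and chance flags about 1 in 20.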

How the results depend on the processing

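Il1b and Il1rn kept their calls at 13 months, all as higher, in 10 of 13 alternatives each and in all 19 fits that left out 1 library. Casp1 kept its call in 7 of the 13 and in 6 of the 19, and it was lost with no filter on low values (limma, adjusted p = 0.0775), with only the 2 groups compared (0.0640) and without HEM 13-month replicates 1 and 11 and HEM 3-month replicate 3 together (0.118). The number of members called at 13 months was 2 to 3 with 1 library left out. It was 0 with the neutrophil and erythroid levels as covariates and 0 with the immediate early level, and the cause was not tested. It was also 0 under the replicate block (the animal number of the titles; Il1b then had 1.63 with an adjusted p of 0.433 in limma), where 0% of all genes were called. The numbers are not shown to pair the mice: over 11 same-numbered pairs the correlation of deviations ran from -0.07 to 0.17, and of the 4 numbers that the HEM groups share, 3 libraries correlated best with their own number. The fit spends most of its degrees of freedom on the numbers. Between the ages in WT, DESeq2 called 1 member, Il1b, and 1219 of 23951 genes. With 1 library left out, limma called 0 members in that comparison, as in the other comparisons that had none.

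Over the 9 members and 5 comparisons, 28 of 45 log2 values changed sign under at least 1 of up to 32 alternatives, none of the 3 called ones among them. The sign changes given here are those of values that the report prints. With the immediate early level as a covariate, uncalled values at 13 months became -0.12 for Il1a, -0.34 for Nlrp3 and -0.12 for Gsdmd, and Il1a in 13-month against 3-month WT became 0.59. Between HEM and WT at 3 months, Il1b became -0.18, Il1rn -0.0038 and Il18 0.076 without those 3 libraries, and Il18 was 0.00031 by DESeq2. With 1 library left out these ran from -0.18 to 0.72, from -0.0038 to 0.54 and from -0.12 to 0.081. Il1b in 13-month against 3-month HEM became -0.050 by edgeR, -0.057 by DESeq2, -0.13 under the replicate block and -0.59 with the neutrophil and erythroid covariates, and ran from -0.38 to 0.52 with 1 library left out. With those covariates Il1rn became -0.063 in that comparison and -0.47 in the difference of genotype effects, where Casp1 became -0.033 under the replicate block. The cause of these sign changes was not tested. Thinning every library to 63.3 M reads left 3 members called at 13 months. Of the pathway genes at 13 months DESeq2 called 6 of receptor signalling, against 3 in limma, 4 of the other sensors and caspases against 2, 4 of the regulators against 2, and 1 further ligand against 0. DESeq2 also called more of all genes there, 3980 of 23951 with 1784 higher, against 2918 of 23973 with 1167 higher in limma.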
